A study of Mus musculus with 5 samples.

Results

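Dietary and biliary cholesterol enters the body through the enterocytes of the small intestine, and 7 genes of this route were followed here: Npc1l1, Soat2, Abcg5, Abcg8, Abca1, Scarb1 and Nr1h3. They were taken by symbol from the 27998 genes of the matrices, and all 7 were found there. NPC1L1 is the brush border transporter that takes up cholesterol from the lumen and is the target of ezetimibe. SOAT2 (ACAT2) esterifies the absorbed cholesterol for packing into chylomicrons. ABCG5 and ABCG8 form a heterodimer that returns cholesterol and plant sterols to the lumen, and ABCA1 passes cholesterol to apolipoprotein A-I at the basolateral side. SCARB1 (SR-BI) is a receptor for high density lipoprotein. NR1H3 (LXRα) is a nuclear receptor for oxysterols that activates Abca1, Abcg5 and Abcg8 and, in enterocytes, lowers Npc1l1.

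Epithelial cells of the ileum, the distal small intestine, were profiled by droplet single-cell RNA-seq. The C57BL/6 mice were 8-12 weeks old and had sham surgery (3 libraries) or small bowel resection (2 libraries), in which part of the small intestine is cut out. Both groups had an operation, and no group without surgery was analysed here. The labels do not say how many mice gave a library or how long after surgery cells were taken, so p-values measure the spread between these libraries. Sham libraries 1, 2 and 3 held 1402, 4014 and 2868 cells, and resection libraries 1 and 2 held 3887 and 7233. Total depth ran from 11749028 to 41281731 UMIs (unique molecular identifiers, each marking 1 captured transcript) per library. The median per cell ran from 4541 to 6239.5 UMIs. Of 19404 cells, 18235 were kept and 17787 of these were in epithelial clusters. Classes were named from marker genes and carry the ending "-like". The largest, with 11655 cells, was enterocyte-like, and its share of the epithelial cells was 56.0%, 64.9% and 59.0% in the sham libraries and 68.4% and 68.9% in the resection libraries.

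The libraries fell into 2 sets that the labels do not name. Sham 1 and resection 1 (set A) shared clusters with each other, as did sham 2, sham 3 and resection 2 (set B). The overlap of cluster shares was 47.1% to 56.0% for the 4 pairs of libraries inside a set and 16.6% to 21.2% for the 6 pairs across sets. Median mitochondrial shares were 13.7% and 11.7% in set A and 7.24% to 9.19% in set B. The main comparisons of surgery are therefore given over all 5 libraries and inside each set. Pairs of libraries had 6 to 47 cell barcodes in common, at most 1.498% of the smaller library.

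Promoter sequence shows how the members are arranged and which letters lie before their start sites. RefSeq (GRCm38.p6) gave promoters for 5 of the 7 members, and Soat2 and Scarb1 were not among them. Npc1l1 lies on the minus strand of chromosome 11, and the 250 bases before its RefSeq start, at chr11:6230246-6230495, are printed 5′ to 3′ on the gene's strand. Capitals mark the only match on either strand to AGGTCA, a short element bound by many nuclear receptors, read here on the reverse strand.
Npc1l1: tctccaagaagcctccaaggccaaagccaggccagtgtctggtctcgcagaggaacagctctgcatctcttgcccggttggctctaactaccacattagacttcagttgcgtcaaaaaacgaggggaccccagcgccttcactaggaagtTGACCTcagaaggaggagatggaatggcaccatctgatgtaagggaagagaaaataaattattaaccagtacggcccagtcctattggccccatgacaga
The same motif lay in 13.8% of 27025 promoter windows of this length, so its presence is common. Abca1 lies on the minus strand of chromosome 4, and the 250 bases before its start are at chr4:53159896-53160145. Capitals mark the match to TGACC and TAACC with any 5 bases between them, the letters of the LXR response element known from the Abca1 promoter.
Abca1: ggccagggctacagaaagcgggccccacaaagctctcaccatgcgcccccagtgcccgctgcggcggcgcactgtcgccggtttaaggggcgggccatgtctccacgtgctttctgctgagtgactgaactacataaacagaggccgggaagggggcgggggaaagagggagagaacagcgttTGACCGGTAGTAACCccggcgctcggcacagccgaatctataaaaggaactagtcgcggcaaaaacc
On both strands that motif was found in 9 of the 27025 windows (0.0333%), Abca1 among them. Abcg5 and Abcg8 lie head to head on chromosome 17, and 109 bases at chr17:84683012-84683120 separate their RefSeq starts. They are printed on the plus strand, on which Abcg8 runs. Capitals mark the 2 matches to GATAA, the core of GATA factor sites, both on the reverse strand.
Abcg5 to Abcg8: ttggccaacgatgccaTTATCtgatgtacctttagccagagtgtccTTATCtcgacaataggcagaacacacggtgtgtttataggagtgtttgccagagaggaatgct
At least 2 such matches were present in 0.803% of windows of 109 bases next to other starts, and at least 1 in 9.49%. A match is a run of letters and was not tested as a binding site. In the GENCODE M21 annotation (GRCm38) the transcripts of Abcg5 (chr17:84658234-84683011, minus strand) and Abcg8 (chr17:84676302-84700333, plus strand) overlap at their 5′ ends on opposite strands. How the counting treated strand is not given in the sources used here. The other members lie at chr11:6211013-6230143 (Npc1l1), chr15:102150526-102163469 (Soat2), chr4:53030787-53159895 (Abca1), chr5:125277087-125341094 (Scarb1) and chr2:91184061-91202834 (Nr1h3) in the same annotation.

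Across epithelial classes, 6 of the 7 genes had their highest mean level in enterocyte-like cells. Levels by class are CPM, the UMIs of a gene as a share of all UMIs of the class in a library brought to a fixed total, without further scaling, as mean ± SD over 5 libraries. Npc1l1 stood at 301 ± 122 in enterocyte-like, 195 ± 84.4 in goblet-like, 95.01 ± 39.1 in immature enterocyte-like, 59.3 ± 26.3 in crypt-like (stem and cycling cells together) and 38.2 ± 28.8 in Paneth-like cells. Each class of this order was above the next in 5 of 5 libraries, except crypt-like over Paneth-like (4 of 5). The other 5 detected members gave the same order of means. Abcg5 went from 84.6 ± 17.8 in enterocyte-like to 50.7 ± 6.39 in immature and 29.97 ± 4.43 in crypt-like cells. Abcg8 went from 95.3 ± 30.4 to 50.8 ± 18.2 and 27.2 ± 7.18, and Soat2 from 92.1 ± 19.95 to 39.6 ± 8.64 and 24.1 ± 8.09. Enterocyte-like cells were above crypt-like cells in every library for each of the 6 genes. Goblet-like and immature cells could not be ordered for Abcg8 and Nr1h3, where goblet-like cells were higher in 3 of 5 libraries. Abca1 was sparse, at 19.5 ± 9.49 in enterocyte-like cells and 3.06 ± 2.61 in crypt-like cells, where it rested on 30 UMIs.

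**Figure D1:**
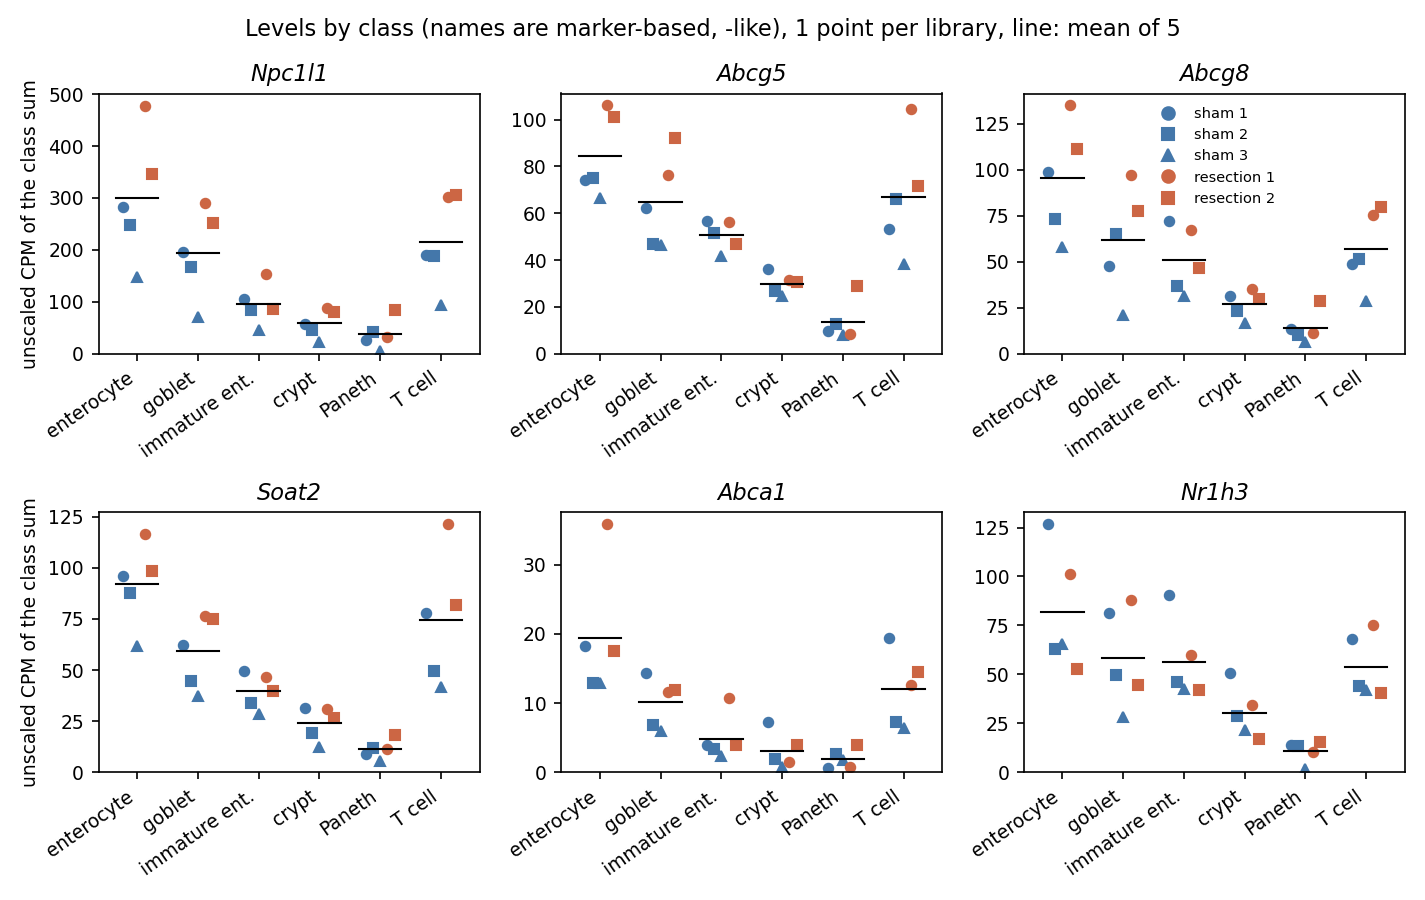
Level of 6 cholesterol genes (unscaled CPM of the class sum, linear axis from 0) in 5 epithelial classes and in T cell-like cells; each point is 1 library and the line is the mean of 5. Enterocyte-like cells have the highest mean in every panel. T cell-like cells, shown because they should lack enterocyte genes such as Npc1l1, stand near goblet-like cells (Npc1l1, 216 against 195). Whether T cells themselves express Abca1 or Nr1h3 was not tested.

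The order outside the enterocyte-like class has to be read against RNA from enterocytes in other droplets. T cell-like cells, 448 cells at a median of 4975.5 UMIs against 4679 in enterocyte-like cells, carried Npc1l1 at 216 ± 89.5 CPM, above every epithelial class but the enterocyte-like one. They also carried the 10 enterocyte marker genes (Alpi, Anpep, Sis and others) at a summed 6323 unscaled CPM, against 9622 in enterocyte-like cells. After each cell was thinned to 2000 UMIs, a UMI of Npc1l1 was found in 25.7% to 60.9% of enterocyte-like cells per library (median 43.1%, and 59.2% to 90.1% without thinning). In T cell-like cells the share was 21.4% to 43.8% (median 32.5%). No cell was too shallow to be thinned. Goblet-like cells (median 27.7%), immature cells (15.8%), crypt-like cells (11.1%) and Paneth-like cells (5.78%) lay below the T cell-like share, so these shares are not read as expression. T cell-like cells do not measure the background of each class, since the enterocyte markers summed to 2267 unscaled CPM in immature and 953 in Paneth-like cells, below the T cell-like sum. Expression in these classes and RNA from enterocytes cannot be told apart by the shares.

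Relative to the enterocyte markers, however, the genes did not keep 1 ratio in all classes. For each 1000 UMIs of the enterocyte markers, enterocyte-like cells held 30.4 ± 5.47 UMIs of Npc1l1, T cell-like cells 32.8 ± 7.70 and immature cells 40.6 ± 7.22. Abcg5 stood at 8.94 ± 1.04 in enterocyte-like and 10.4 ± 2.16 in T cell-like cells but at 23.1 ± 3.93 in immature and 20.5 ± 5.25 in crypt-like cells. Abcg8 followed the same pattern, with 9.86 ± 1.54, 8.72 ± 1.51, 22.2 ± 4.34 and 17.9 ± 2.10 in the same order of classes. Immature and crypt-like cells thus had more of these efflux genes per enterocyte marker than enterocyte-like cells did, in 5 of 5 libraries for each gene. So did Paneth-like cells (Abcg5 14.6 ± 2.89, Abcg8 15.2 ± 4.15), also in 5 of 5. Goblet-like cells were above in 5 of 5 libraries for Abcg5 and 3 of 5 for Abcg8. For Npc1l1, immature, crypt-like and goblet-like cells were above enterocyte-like cells in 5 of 5 libraries and Paneth-like cells in 4 of 5. Nr1h3 was at 8.89 ± 3.88 in enterocyte-like, 8.71 ± 2.44 in T cell-like and 25.2 ± 7.49 in immature cells, and Soat2 at 9.69 ± 1.08, 11.5 ± 3.17 and 17.7 ± 2.07. Both were higher in immature than in enterocyte-like cells in 5 of 5 libraries. For Abca1 the ratio was 1.97 ± 0.47 in enterocyte-like and 2.03 ± 0.89 in immature cells, with immature cells higher in 3 of 5 libraries. These ratios are descriptions, since the marker genes also named the classes.

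Scarb1 was close to undetected in these libraries. It had 10 UMIs in all cells of the files and 6 in epithelial cells, 2 of them in enterocyte-like cells. No UMI was found in crypt-like or goblet-like cells. In enterocyte-like cells Abca1, the least abundant of the other members, had 1265 UMIs. Scarb1 did not pass the filter on low counts in any class, so it could not be compared, and the surgery comparison covers the other 6 members. Whether the annotation the authors counted with covers the 3′ end of Scarb1 was not tested, so its low count is not read as a low level of the transcript.

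Within the enterocyte-like class, cells were ranked in each library by the ratio of villus tip genes (such as Ada, Nt5e and Krt20) to villus base genes (such as Reg3b, Reg3g and Ccl25) and divided into 3 equal parts. Of these cells, 90 (sham 1) to 328 (resection 2) lay within 0.1 log2 units of a boundary, so the parts are stretches of a range and not cell types. Npc1l1 went from 231 ± 91.5 unscaled CPM in the lower part to 283 ± 121 in the middle and 406 ± 171 in the upper part. The upper part was 1.33 to 2.16 times the lower part, and above it in 5 of 5 libraries. Abcg5 (upper over lower mean, 1.40), Abcg8 (1.35) and Soat2 (1.27) were also higher in the upper part in 5 of 5 libraries. Nr1h3 was flat by comparison, at 80.8 ± 35.4, 84.9 ± 27.1 and 78.8 ± 32.9, with the upper part above the lower in 1 of 5 libraries. Abca1 had no shared direction: in resection 1 it went from 44.0 in the lower to 23.0 in the upper part, whereas in the other 4 libraries the upper part was above the lower.

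**Figure D2:**
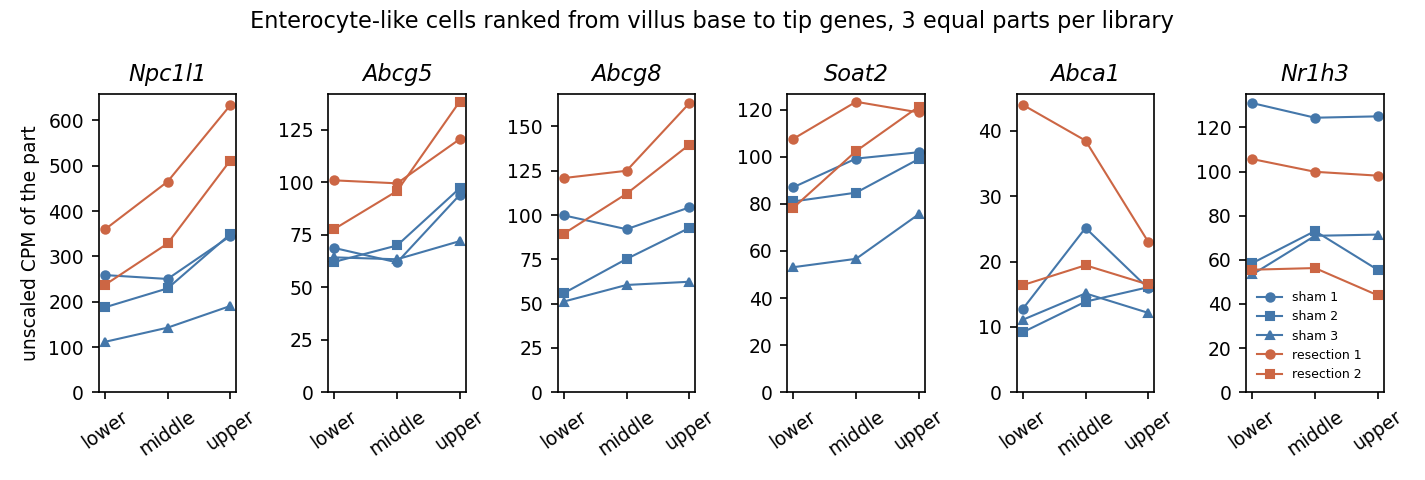
Level of 6 cholesterol genes (unscaled CPM of each part, linear axis from 0) in the lower, middle and upper part of enterocyte-like cells ranked from villus base to villus tip genes; each line is 1 library. Npc1l1, Abcg5, Abcg8 and Soat2 end higher than they start in all 5 libraries, and Nr1h3 does so in 1 of 5.

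The surgery comparison asked how ileal epithelial cells differ after resection. In enterocyte-like cells, 5 of the 6 tested members (Npc1l1, Abcg5, Abcg8, Soat2 and Abca1) were higher in both resection libraries than in every sham library. Among all 10389 genes tested in this class, 10.4% showed that, and 8.18% were lower in both resection libraries than in every sham library. The cells of the class sat in different clusters in each library. In sham 1, 633 of 701 enterocyte-like cells were in the cluster led by Fgf15. Resection 1 supplied 896 of the 900 cells of the cluster led by Sgk1 and 873 of the 894 cells of the cluster led by Lct and Apoa4. Resection 2 supplied 2154 of the 2338 cells of the cluster led by Fabp2 and Cyp3a11. Npc1l1 stood at 522, 559 and 473 unscaled CPM in the cells these libraries gave to those 3 clusters. No member passed the test of edgeR on the summed counts. In this fit edgeR called 0 genes of all those tested (0%) at an adjusted p of 0.05, with 503 genes at an unadjusted p under 0.05, and DESeq2 called 68, none of them a member. The median log2 fold change of the 6 members was 0.58, against -0.02 over all genes tested. The values in the accounts of single genes are CPM of the enterocyte-like sum after scaling by TMM, edgeR's scaling for library composition.

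Npc1l1, the uptake transporter, was at 243, 276 and 161 CPM in sham libraries 1, 2 and 3 and at 435 and 369 in resection libraries 1 and 2. The lowest resection library was above the highest sham library, and sham 3 was the lowest of all. The log2 fold change was 0.83 ± 0.32 (SE, n = 3 and 2), with an unadjusted p of 0.0336 and an adjusted p of 0.982 by edgeR's quasi-likelihood test. Inside set A the log2 ratio was 0.84 and inside set B it was 0.76. A UMI was found, after thinning, in 43.1% (95% exact binomial interval 39.4% to 46.8%), 40.2% (38.2% to 42.1%) and 25.7% (23.6% to 27.9%) of cells in the sham libraries. In the resection libraries it was found in 60.9% (59.0% to 62.9%) and 49.8% (48.4% to 51.3%), again above all sham libraries. Intervals cover counting error only.

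Soat2, which esterifies what NPC1L1 brings in, was at 82.3, 96.9 and 67.0 CPM in sham and at 106 and 105 CPM in resection libraries. The groups did not overlap, but the gap between sham 2 and the resection libraries was smaller than the spread of the sham libraries. The log2 fold change was 0.37 ± 0.26 (edgeR adjusted p = 0.999), and it was 0.24 without sham 3. Inside both sets the log2 ratio was 0.36.

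Abcg5 stood at 63.7, 83.0 and 72.1 CPM in sham and at 96.9 and 108 CPM in resection libraries, a log2 fold change of 0.49 ± 0.24 (edgeR adjusted p = 0.999). Its partner Abcg8 stood at 84.3, 81.4 and 63.3 CPM in sham and at 123 and 119 CPM in resection libraries, a log2 fold change of 0.67 ± 0.25 (unadjusted p = 0.0298, edgeR adjusted p = 0.967). Neither gene's groups overlapped. The log2 ratios inside sets A and B were 0.61 and 0.48 for Abcg5 and 0.54 and 0.72 for Abcg8. Both genes of the heterodimer were thus higher in the resection libraries, as the uptake transporter was.

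Abca1 was at 15.6, 14.3 and 14.0 CPM in sham libraries, a narrow range, and at 32.7 and 18.7 CPM in resection libraries. Resection 1 was the high library, and resection 2 lay just above the sham range. The log2 fold change was 0.81 ± 0.28 (unadjusted p = 0.0228, edgeR adjusted p = 0.929). It was 0.36 without resection 1 and 1.16 without resection 2, and the log2 ratios inside sets A and B were 1.07 and 0.40. Abca1 is abundant in macrophages, so myeloid markers were counted in the same cells. The 10 myeloid markers summed to 9.06 to 10.9 unscaled CPM in sham and 5.70 to 9.61 unscaled CPM in resection libraries. Of these markers Itgam was the highest in enterocyte-like cells, while Adgre1 and C1qc had no UMI there and Csf1r had 8. The part of myeloid RNA in the Abca1 values was not tested.

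Nr1h3, the receptor, was at 108, 69.8 and 71.3 CPM in sham and at 92.5 and 56.2 CPM in resection libraries, so the groups overlapped. Both libraries of set A were the high ones. The log2 fold change was -0.16 ± 0.33 (edgeR adjusted p = 0.999), with log2 ratios of -0.23 and -0.33 inside sets A and B. Its sign turned to 0.08 without sham 1 and to 0.15 without resection 2.

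**Figure D3:**
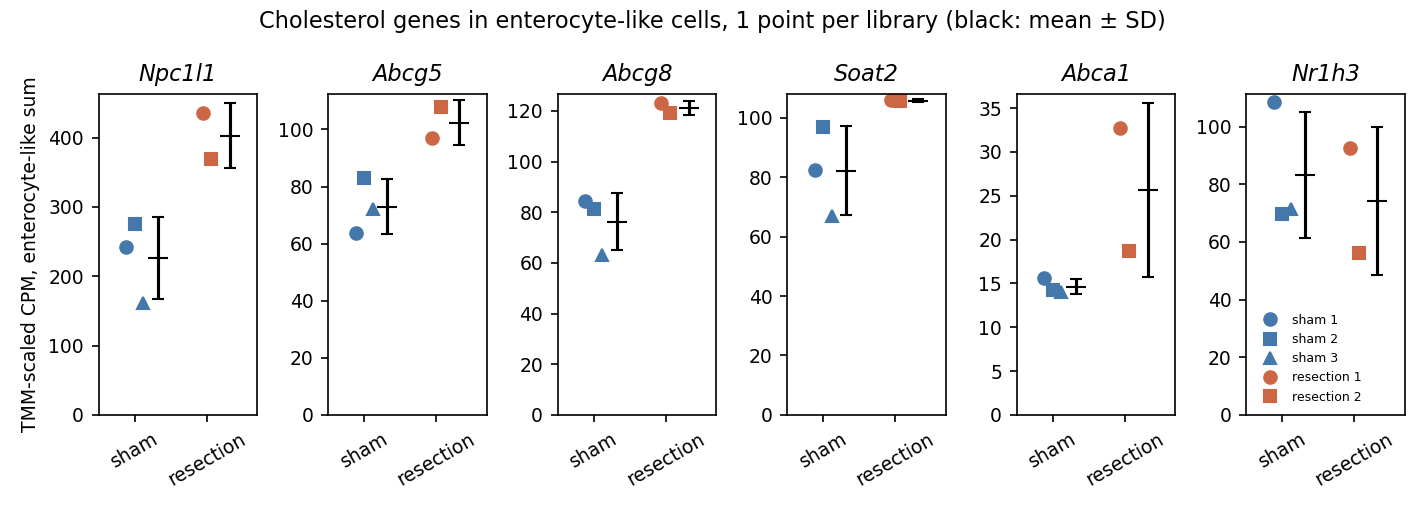
TMM-scaled CPM (linear axis from 0) of 6 cholesterol genes in the enterocyte-like sum, 3 sham and 2 resection libraries; each point is 1 library and black bars show the mean ± SD of a group. Both resection points lie above all sham points for Npc1l1, Abcg5, Abcg8, Soat2 and Abca1, and the groups overlap for Nr1h3.

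The enterocyte markers moved with these genes. Their summed level in enterocyte-like cells was 8390, 9286 and 6588 unscaled CPM in sham and 13647 and 10202 in resection libraries, so both resection libraries were above every sham library. For each 1000 UMIs of these markers, Npc1l1 was at 33.8, 26.8 and 22.5 in sham and at 34.996 and 33.9 in resection libraries, which left the groups apart by less than 1 unit. Abcg5 was then at 8.86, 8.06 and 10.1 against 7.79 and 9.90, and Abcg8 at 11.7, 7.91 and 8.84 against 9.89 and 10.9. Those groups overlapped, as did those of Soat2 and Abca1, so that 1 of the 6 members still lay above every sham library on this scale. The share of all genes with that order was not computed on this scale, so the count is a description. The part of enterocyte maturity in the higher CPM values was not tested.

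The same question was asked inside single clusters, where cells of both groups met. Of the enterocyte-like clusters, 6 held at least 100 cells of a sham library and of a resection library. The resection library was resection 1 in the cluster led by Fgf15 and resection 2 in all the others. The clusters thus repeat resection 2 and are not independent. Npc1l1 was higher in the resection library than in each sham library there in 5 of 6 clusters, and Abcg8 and Soat2 also in 5. Abcg5 and Abca1 were higher in 4 of 6, and Nr1h3 in 2 of 6. The share of all genes with such counts of clusters was not computed. In the cluster led by Fgf15, the only one shared by both libraries of set A, Npc1l1 was at 269 unscaled CPM in sham 1 and 329 in resection 1, and Abca1 at 18.5 and 44.1. In the cluster led by Gsta1 and Fabp6, Npc1l1 was at 153 and 117 in sham 2 and 3 and at 214 in resection 2. The exception was the cluster led by Fabp2 and Cyp3a11, where Npc1l1 was at 563 in sham 2 and 473 in resection 2. Clusters of 1 library differed widely too: in resection 2 Npc1l1 was at 214 in the Gsta1 cluster and 473 in the Fabp2 cluster. Regional genes differed inside the same clusters. Apoa4 was higher in the resection library in 6 of 6 clusters, and Fabp6, the bile acid binding protein typical of the ileum, was lower in 5 of 6. In the Fgf15 cluster Fabp6 was at 34189 unscaled CPM in sham 1 and 7590 in resection 1, and Apoa4 at 462 and 1823. In the Fabp2 cluster Fabp6 was at 8274 in sham 2 and 17293 in resection 2. These values come from 2 or 3 libraries a cluster, and the part of the regional difference in those of the members was not tested.

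The groups were also compared within the parts of the villus range. Each library was cut at its own boundaries, so a part does not cover the same scores in every library. The upper boundary lay at -5.09, -5.63 and -5.49 log2 units in sham and at -5.11 and -4.50 in resection libraries. In the upper part Npc1l1 averaged 295 unscaled CPM in sham and 573 in resection libraries, Abcg5 87.7 and 129, and Abcg8 86.5 and 151. Both resection libraries were above every sham library in the upper part for Npc1l1, Abcg5, Abcg8, Soat2 and Abca1. The enterocyte marker Alpi (means of 289 in sham and 460 in resection libraries) and Apoa4 had the same order there, so it is not particular to the members. Among the members this held in the lower part for Abcg5 and Abca1. Npc1l1 was there at 259, 188 and 111 in sham and at 359.5 and 237 in resection libraries, with sham 1 above resection 2. These values are not scaled by TMM, whose factors for the whole class were 1.17 in sham 1 and 0.936 in resection 2. Dividing by those factors would put resection 2 above sham 1, so this order depends on the scaling. The share of all genes with this order of libraries was not computed for the parts. The difference between upper and lower part was not tested.

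In immature enterocyte-like cells the members' values overlapped between groups, apart from Abca1. Abca1 was at 3.43, 3.78 and 2.52 CPM in sham and at 9.43 and 4.39 CPM in resection libraries, on 100 UMIs in all, with a log2 fold change of 1.09 ± 0.45 (edgeR adjusted p = 1) and log2 ratios of 1.46 and 0.48 inside sets A and B. It was 0.45 without resection 1. Having 1 of 6 members above every sham library compares with 6.27% of the 9697 genes tested there, and 4.88% were below. Npc1l1 was at 90.8, 94.8 and 49.9 CPM in sham and at 135 and 94.3 CPM in resection libraries, with log2 ratios of 0.57 and 0.38. Abcg5 was level, with a log2 fold change of -0.01 ± 0.24. In this class edgeR called 0 genes (0%), with 135 at an unadjusted p under 0.05, and DESeq2 called 3. A fit of both classes with the library as a block tested whether the effect of resection differed between them. For Abcg5 it was larger in enterocyte-like cells by 0.53 ± 0.15 on the log2 scale (unadjusted p = 0.00298, edgeR adjusted p = 0.136). The differences for Abcg8 (0.40, edgeR adjusted p = 0.387), Npc1l1 (0.32, 0.431) and Soat2 (0.22, 0.690) had the same sign, and those for Nr1h3 (0.09) and Abca1 (-0.21) were smaller than their SE. Over all genes this test called 1 of 10378 (0.00964%).

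Crypt-like cells, the stem and cycling cells, held Npc1l1 at 51.2, 51.2 and 24.8 CPM in sham and at 78.6 and 88.6 CPM in resection libraries. The groups did not overlap, and the log2 fold change was 1.04 ± 0.35 (unadjusted p = 0.0132, edgeR adjusted p = 1), with log2 ratios of 0.62 and 1.22 inside sets A and B. Abcg8 was the other member above every sham library, at 27.7, 25.6 and 17.9 against 31.0 and 32.6 CPM. Having 2 of 6 compares with 6.72% of the 9818 genes tested, and 5.07% were below. In this class too edgeR called 0 genes (0%), with 185 at an unadjusted p under 0.05, and DESeq2 called 3. The enterocyte markers in crypt-like cells were at 1638, 1454 and 851 unscaled CPM in sham and at 1816 and 1939 in resection libraries, also without overlap. Per 1000 UMIs of those markers, Npc1l1 was at 35.2, 31.7 and 27.5 against 48.7 and 41.7, still apart. Abcg8 was at 19.1, 15.9 and 19.8 against 19.2 and 15.3 on this scale, so that its groups overlapped. Abcg5 (22.03, 18.4 and 29.0 against 17.4 and 15.8) and Nr1h3 (30.8, 19.7 and 25.6 against 19.0 and 8.82) lay below every sham library. The shares of all genes above or below every sham library were not computed per marker UMI. T cell-like cells carried Npc1l1 at 189, 189 and 93.2 unscaled CPM in sham and at 302 and 306 in resection libraries, so the same order of groups appeared there too. RNA from enterocytes in these droplets cannot be told apart from expression by crypt cells.

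In the sum of all epithelial cells, the same 5 members as in enterocyte-like cells lay above every sham library, against 7.74% of the 11706 genes tested (6.02% were below). Npc1l1 was at 158, 183 and 90.1 CPM in sham and at 269 and 246 CPM in resection libraries, a log2 fold change of 0.84 ± 0.36 (edgeR adjusted p = 1), with 0.77 and 0.85 inside sets A and B. Here edgeR called 0 genes (0%), with 322 at an unadjusted p under 0.05, and DESeq2 called 33. The share of enterocyte-like cells, given above, differs between these libraries and enters this sum. The enterocyte markers were at 3836, 5929 and 4181 unscaled CPM in sham and at 8368 and 7302 in resection libraries, without overlap. Per 1000 UMIs of those markers, 0 of the 6 members lay above every sham library and 0 below, and the shares of all genes were not computed on that scale.

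**Figure D4:**
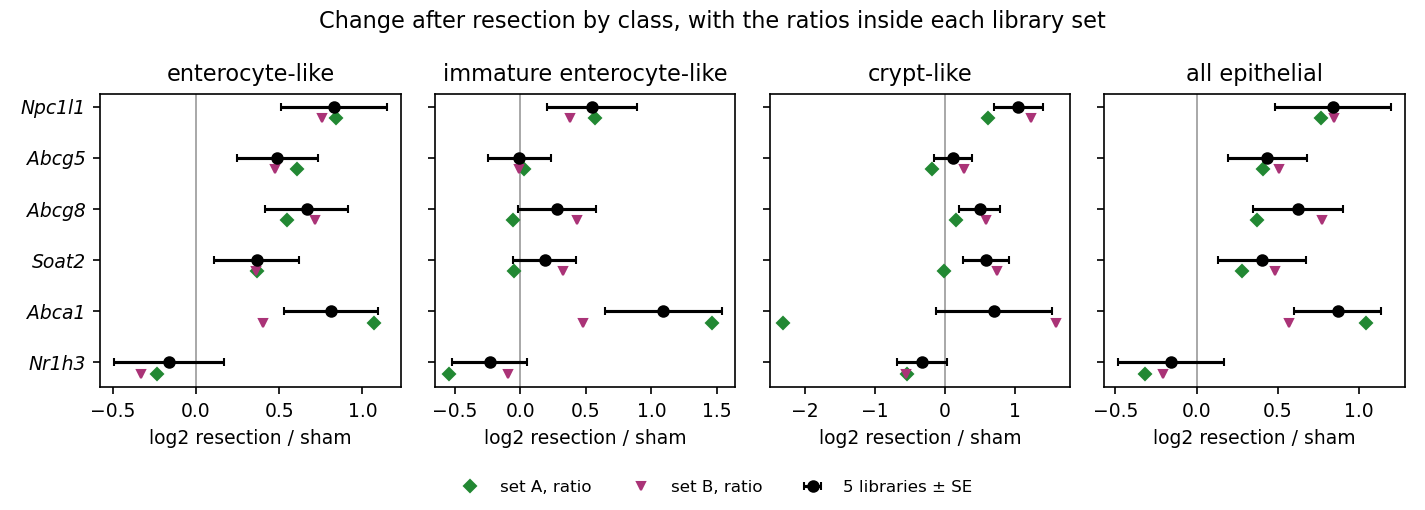
Log2 change of 6 cholesterol genes between resection and sham libraries in 3 classes and all epithelial cells; black points are the edgeR fit over 5 libraries with its SE, and coloured points are the ratios inside set A and set B. In enterocyte-like cells 5 genes lie right of 0 in both sets and Nr1h3 lies left of it (-0.23 and -0.33).

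Neighbouring steps of the pathway were described from gene lists, in enterocyte-like cells. Of 12 genes for esterification and lipoprotein packaging, 11 were tested and none passed edgeR's test over all 5 libraries, but 5 were above every sham library (Apoa4, Apob, Apoa1, Mttp and Dgat2) and 0 below, where all genes tested gave 10.4% and 8.18%. The list had a median log2 ratio of 0.62 inside set A and 0.15 inside set B. Apob, the structural protein of chylomicrons, was at 547, 520 and 424 CPM in sham and at 1160 and 924 CPM in resection libraries. Its log2 fold change was 1.07 ± 0.30 (edgeR adjusted p = 0.692), with 1.08 and 0.97 inside sets A and B, and Apoa1, the acceptor of cholesterol from ABCA1, had 0.81 ± 0.43 (adjusted p = 0.999). Apoa4, a chylomicron apolipoprotein that is typical of the proximal intestine, was at 575, 786 and 223 CPM in sham and at 7266 and 4075 CPM in resection libraries. Its log2 fold change was 3.43 ± 0.57 (edgeR adjusted p = 0.287), with 3.66 and 3.01 inside sets A and B. With the library set as a term in the edgeR fit, 24 of 10389 genes were called (0.231%). Apoa4 was among them (adjusted p = 0.0426), and none of the members was, Npc1l1 reaching 0.300, Abca1 0.292 and Abcg8 0.257.

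Of 18 uptake and transport genes, 15 were tested, none was called, and the median log2 fold change was 0.11, with 4 genes above every sham library and 1 below (10.4% and 8.18% of all genes tested). The medians inside sets A and B had opposite signs, 0.34 and -0.07. Cd36, the fatty acid translocase, was at 5.71, 5.74 and 2.01 CPM in sham and at 28.3 and 8.84 CPM in resection libraries (log2 fold change 2.08 ± 0.59, edgeR adjusted p = 0.711), with log2 ratios of 2.31 and 1.19 inside sets A and B. Lipa, the lysosomal acid lipase, had a log2 fold change of 0.91 ± 0.31 and Gramd1b, which carries plasma membrane cholesterol to the endoplasmic reticulum, one of 0.83 ± 0.29. In all 3 resection 1 was the higher resection library, as for Abca1.

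Of 18 partners, targets and regulators of LXR, 16 were tested with a median of 0.01, and 4 were above every sham library and 0 below (10.4% and 8.18% of all genes tested), with none called. The medians inside sets A and B had opposite signs, -0.11 and 0.10. Mylip, an LXR target that degrades the LDL receptor, was at 3.95, 6.53 and 2.10 CPM in sham and at 11.1 and 7.66 CPM in resection libraries (log2 fold change 1.15 ± 0.45, with 1.49 and 0.83 inside sets A and B). Rxrb, a partner of LXR, had 0.51 ± 0.27. Nr0b2 (SHP), a repressor induced by bile acids, was at 0.44, 0.10 and 0 CPM in sham and at 2.34 and 1.43 CPM in resection libraries, too low for a fold change to be given.

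Sterol synthesis genes mostly had lower values after resection. All 25 were tested and none was called, 21 of them had negative fold changes, and the median was -0.30. Within sets A and B the list medians were -0.34 and -0.24. The list had 8 genes below every sham library and 0 above, against the 8.18% given for all genes. Lanosterol synthase (Lss) had a log2 fold change of -0.55 ± 0.25 and Acat2, the cytosolic thiolase and not the sterol esterifying enzyme, had -0.57 ± 0.27. In immature cells 21 of 25 were also negative (median -0.23, and -0.13 and -0.25 inside sets A and B), with 6 below every sham library where all genes tested there gave 4.88%. In crypt-like cells 9 of 25 were negative, and the medians inside sets A and B had opposite signs (0.41 and -0.18).

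The pattern across classes and libraries tied the members to other enterocyte genes. Over 25 sums (5 classes in 5 libraries), Abcg5 and Abcg8 had a Pearson correlation of log2(CPM + 10) of 0.94, no higher than those of Abcg5 with Soat2 (0.97), Abcg8 with Soat2 (0.96), Abcg8 with Npc1l1 (0.95) and Npc1l1 with Soat2 (0.96). Among 4575 genes, genes close to Npc1l1 were Apob (0.98) and Sgpl1 (0.98), and those closest to Soat2 were Mttp (0.99), Dgat2 (0.98) and Aoc1 (0.98). Abcg5 was nearest to Ogdh, Dnpep and Ifi35, Abcg8 to Pink1, Aoc1 and Mttp, and Nr1h3 to Acaa1a, Myh14 and Adipor2, all at 0.96 to 0.98. Mttp and Dgat2, which load and make the lipid of chylomicrons, were thus near to the gene that makes cholesterol esters. The sums share libraries, classes and enterocyte RNA in other droplets, so these correlations are descriptions.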

How the data were processed

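Cells were captured on the 10x Chromium instrument with 3′ (v2) chemistry, and the deposited values are UMI counts, not normalized, in 1 gene by cell matrix per library, which the authors made with Cell Ranger, per the labels. The submitters' processing notes name mm10 and GRCm38. Cells needed 500 or more genes and a mitochondrial share of 20% or less. Scrublet-type scores removed 720 doublets (0.8% per 1000 cells). Cells were clustered jointly with scanpy 1.11.5 and leidenalg 0.10.2 (2000 variable genes, 30 components, 20 neighbours, resolution 1.0) without mitochondrial genes and without the genes described here. Of 17 clusters, named by marker level, 10 were enterocyte-like. Stem and cycling markers met in 1 cluster, so they were joined as crypt-like after the data were seen.

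Counts were summed per library and class, and edgeR 4.0.16 (TMM, filterByExpr, quasi-likelihood F-test, two-sided, Benjamini-Hochberg over all genes tested, threshold 0.05) compared the 2 resection with the 3 sham libraries. The fitting was tested on simulated counts. DESeq2 1.42.0 and other settings were alternatives. Besides the members, the text names the 3 genes of lowest p in each of 4 pathway lists and the 3 genes most like each member at 20 CPM or more, plus a few chosen after their values were seen (Mttp and Dgat2 in the packaging list). 2 genes that this rule picks are not reported here. Members and lists were chosen with earlier results of these data known. Clusters compared by surgery needed 100 cells a library. Shares of cells were thinned to 2000 UMIs (seed 0).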

Additional observations from a re-analysis of the deposited data

How the results depend on the processing

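Of the 6 tested members in enterocyte-like cells, Npc1l1 (log2 fold change 0.63 to 0.99), Abcg5 (0.40 to 0.58), Abcg8 (0.54 to 0.79), Soat2 (0.24 to 0.49) and Abca1 (0.36 to 1.16) stayed positive under all 14 alternatives. None was called except Abca1 under the replicate block. Resolution 0.5, which gave the highest value of Abcg8, changed the classes of sham 1 most. There 1 cluster named immature enterocyte-like held 847 cells of sham 1 and 997 of resection 1. In the main setting sham 1 had 227 immature and 701 enterocyte-like cells. The enterocyte-like class of that alternative therefore lacks most of the sham 1 cells of the main class. Abca1 rested on 100 UMIs in immature and 30 in crypt-like cells, which limits its values there, and Scarb1 was tested in no class.

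The number of genes called depended on the setting, from 0 in each class. In enterocyte-like cells it was 68 with DESeq2, 178 with no filter on low counts, 24 with the library set as a term and 29 at most 10% mitochondrial counts. It was 3, 1, 1 and 4 in immature cells, 3, 22, 4 and 15 in crypt-like cells, and 33, 17 and 1 for the first 3 of these in all epithelial cells. Leaving out a library gave 0 to 3 calls in enterocyte-like cells (3 without resection 2) and 0 in the other classes. For the difference between enterocyte-like and immature cells, 1 call became 12 with RLE size factors, 309 with no filter, 2 with genes scaled within library before clustering and 0 to 338 without 1 library (165 without sham 2, 338 without resection 2).

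The labels give both groups the replicate numbers 1 and 2 but do not say that a number marks a shared animal or day. Deviations from the group mean correlated at 0.72 for number 1 and 0.33 for number 2 in enterocyte-like cells, and sham 3 correlated at 0.64 with resection 2. With 2 resection libraries those deviations mirror each other, so each correlation with resection 2 is the negative of that with resection 1. The values for the 2 numbers are thus not independent. With the replicate number as a block, 422 genes were called in enterocyte-like, 126 in immature and 47 in crypt-like cells, and 322 in all epithelial cells. In that fit sham 3 is alone in its block and adds nothing to the effect of surgery. The fit leaves 1 residual degree of freedom, and the libraries of number 1 are those of set A. Its calls are therefore given as a dependence on the setting only. Abca1 in enterocyte-like cells was then 0.71 (edgeR adjusted p = 0.0459, the lowest of its alternatives).

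Signs turned for small changes only, and the cause was not tested. Nr1h3 became 0.08 without sham 1, 0.15 without resection 2 and 0.0047 at resolution 0.5 in enterocyte-like cells, 0.0062 without sham 1 in immature cells, 0.10 and 0.11 without sham 1 and without resection 2 in all epithelial cells, and -0.22 without resection 1 in the difference of classes. Abcg5 in immature cells became 0.018 with no filter, 0.10 without sham 2, 0.026 without resection 1, 0.0061 with the set term, 0.070 with doublets kept, 0.033 at most 10% mitochondrial counts, 0.20 with genes scaled within library and 0.040 at resolution 0.5. In crypt-like cells it became -0.029 without resection 2, -0.011 with doublets kept, -0.060 at most 10% mitochondrial counts and -0.0046 with genes scaled within library. Without 1 library, Nr1h3 ranged from -0.56 to 0.15 in enterocyte-like, -0.39 to 0.0062 in immature and -0.46 to 0.11 in all epithelial cells and from -0.22 to 0.37 in the difference, and Abcg5 from -0.092 to 0.10 in immature and -0.029 to 0.23 in crypt-like cells.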
